A study of Mus musculus with 2 samples.

Results

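The S100 genes described here are S100a1, S100a4, S100a6, S100a8, S100a9, S100a10, S100a11 and S100b, 8 of the 31053 genes in the files, chosen by name as members of one gene family. They were followed through tumours grown from B16F10, a mouse melanoma line, in hosts with or without the transcription factor gene Atf4. Both libraries came from C57BL/6 mice that, by the study's methods, carried Rosa26::CreERT2, a ubiquitously expressed recombinase that tamoxifen switches on, and all hosts were dosed with tamoxifen. The WT library was from Atf4wt/wt hosts and the KO library from Atf4D/D hosts, whose loxP-flanked Atf4 alleles had been excised throughout the body. Each library pooled 2 small subcutaneous tumours from male and female mice aged 11 weeks per the labels. The injected melanoma cells kept their own Atf4 in both libraries.

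S100 proteins are small EF-hand proteins, most of which bind calcium and then attach to target proteins, and several are also released from cells. S100b is a classical marker of melanocytic and neural crest cells. S100a10 pairs with annexin A2 at membranes and is unusual in the family because it does not need calcium, S100a11 binds annexin A1, and S100a6 is known as calcyclin. S100a4 is also called fibroblast-specific protein, although leukocytes make it too. S100a8 and S100a9 join to form calprotectin, an abundant cytosolic complex of neutrophils and of young monocytes.

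The values are unique molecular identifiers (UMIs), each of which stands for 1 captured transcript. The WT library held 38417113 UMIs in 6304 barcodes and the KO library 38290024 in 5474, and 10 barcodes occurred in both. The filters kept 3861 WT cells, with a median of 3920 UMIs, and 3557 KO cells, with a median of 6279. Cells were sorted into classes by marker genes that include no S100 gene. This gave 1718 WT and 1803 KO melanoma-like cells, 822 and 669 macrophage-like cells, 211 and 177 monocyte-like cells, 185 and 213 fibroblast-like cells, and 73 and 24 endothelial-like cells. Of the 10 genes most raised in each of these 5 classes, between 2 and 6 were markers of that class and 0 were markers of another. The gates used these same markers, so the counts describe the classes and do not check them. The monocyte-like cells were shallow, with medians of 1147 and 1138 UMIs. A further 812 WT and 651 KO cells met no gate or several, and are called unassigned. No WT host cell of the named classes had a UMI of a Y-linked gene, although the label names both sexes, whereas 107 of 669 KO macrophage-like and 46 of 213 KO fibroblast-like cells had one. Xist, a transcript of female cells, showed the reverse. Macrophage-like cells with Xist and no Y-linked UMI numbered 612 for WT but only 74 for KO. Fibroblast-like cells of this kind numbered 152 and 56, and monocyte-like cells 108 and 21. Most KO cells of these 3 classes showed neither marker, so the share of male cells was not estimated. Host sex and genotype were therefore confounded in every host-class ratio not split by sex, and values by sex are given beside many of the ratios.

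Levels are counts per 1000000 UMIs of the class (CPM), and the log2 KO/WT ratio compares the libraries. The UMIs mark 3′ ends and do not grow with transcript length. With 1 library per genotype there was no replicate check and no test. Each interval in parentheses is a 95% interval for counting error only, which does not cover the difference between mice. Atf4 itself had a level of 254 CPM in WT and 51.0 CPM in KO fibroblast-like cells, of 177 and 44.0 CPM in macrophage-like cells, and of 227 and 208 CPM in melanoma-like cells, so the targeted gene was low in the KO host classes and not in the tumour cells.

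In GRCm38, 7 of the 8 genes lie on chromosome 3 within 3.05 Mb, and S100b (chr10:76253853-76261159, plus strand) lies alone on chromosome 10. S100a4 (chr3:90603771-90606045, plus strand) and S100a6 (chr3:90612882-90624181, plus strand) are separated by 6.84 kb. S100a8 (chr3:90668978-90670035, plus strand) and S100a9 (chr3:90692632-90695721, minus strand) face each other across 22.6 kb. S100a11 (chr3:93520488-93526287, plus strand) and S100a10 (chr3:93555080-93564643, plus strand) are 28.8 kb apart, and S100a1 (chr3:90511034-90514392, minus strand) lies at the other end of the group. All are protein coding. A predicted gene on the same strand, Gm42674, overlaps S100a4 but had 0 UMIs in both libraries. Dip2a, on the opposite strand to S100b, had 178 WT and 179 KO UMIs in all kept cells.

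The 250 bases upstream of the RefSeq start are shown for S100a4, S100a8, S100a9 and S100a11. In fibroblast-like cells the S100a4 level was 2.85-fold higher in KO. S100a8 and S100a9 were seen together in some cells, and the S100a11 ratio pointed in opposite directions in tumour cells and macrophages. The sequences are from RefSeq on GRCm38.p6, written 5′ to 3′ along the gene's strand. S100a4 is chr3:90603520-90603769, S100a8 is chr3:90668821-90669070, S100a9 is chr3:90695722-90695971 on the minus strand and S100a11 is chr3:93520246-93520495. For S100a8 and S100a11 the GENCODE gene start lies inside the window. Capitals mark TATAAA, the core of a TATA box, and TGANTCA, the site of AP-1.
S100a4: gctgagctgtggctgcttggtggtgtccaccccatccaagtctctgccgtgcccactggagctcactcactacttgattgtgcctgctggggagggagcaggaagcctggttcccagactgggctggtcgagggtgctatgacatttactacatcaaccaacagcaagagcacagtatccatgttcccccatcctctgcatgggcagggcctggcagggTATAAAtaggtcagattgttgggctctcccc
S100a8: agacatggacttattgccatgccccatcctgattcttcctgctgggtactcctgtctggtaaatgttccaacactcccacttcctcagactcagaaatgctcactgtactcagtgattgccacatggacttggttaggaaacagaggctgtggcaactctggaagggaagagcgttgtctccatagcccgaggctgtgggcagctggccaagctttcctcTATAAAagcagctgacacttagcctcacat
S100a9: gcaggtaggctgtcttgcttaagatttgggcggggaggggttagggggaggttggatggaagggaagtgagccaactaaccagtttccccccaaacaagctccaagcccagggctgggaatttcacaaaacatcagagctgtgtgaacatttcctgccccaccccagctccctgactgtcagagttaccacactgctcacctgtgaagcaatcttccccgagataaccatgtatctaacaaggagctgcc
S100a11: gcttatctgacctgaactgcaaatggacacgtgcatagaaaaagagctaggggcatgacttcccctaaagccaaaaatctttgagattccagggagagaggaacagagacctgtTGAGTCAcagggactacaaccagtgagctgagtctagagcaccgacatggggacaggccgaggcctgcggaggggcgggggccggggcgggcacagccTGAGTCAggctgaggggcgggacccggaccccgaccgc
The windows of 7 members were searched on both strands. TATAAA was found in S100a4, beginning 31 bases before the start, and in S100a8, 30 bases before it, and 12.4% of 32851 promoters of the same length hold this motif. TGANTCA was found in S100a11 only among the 7, at 136 and 38 bases before the start, and 6.75% of promoters hold it. TGATGNAA, an element bound by pairs of C/EBP and ATF proteins, was found in 0 of the 7 and in 3.45% of promoters, which says only that these letters are not in these windows.

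**Figure D1:**
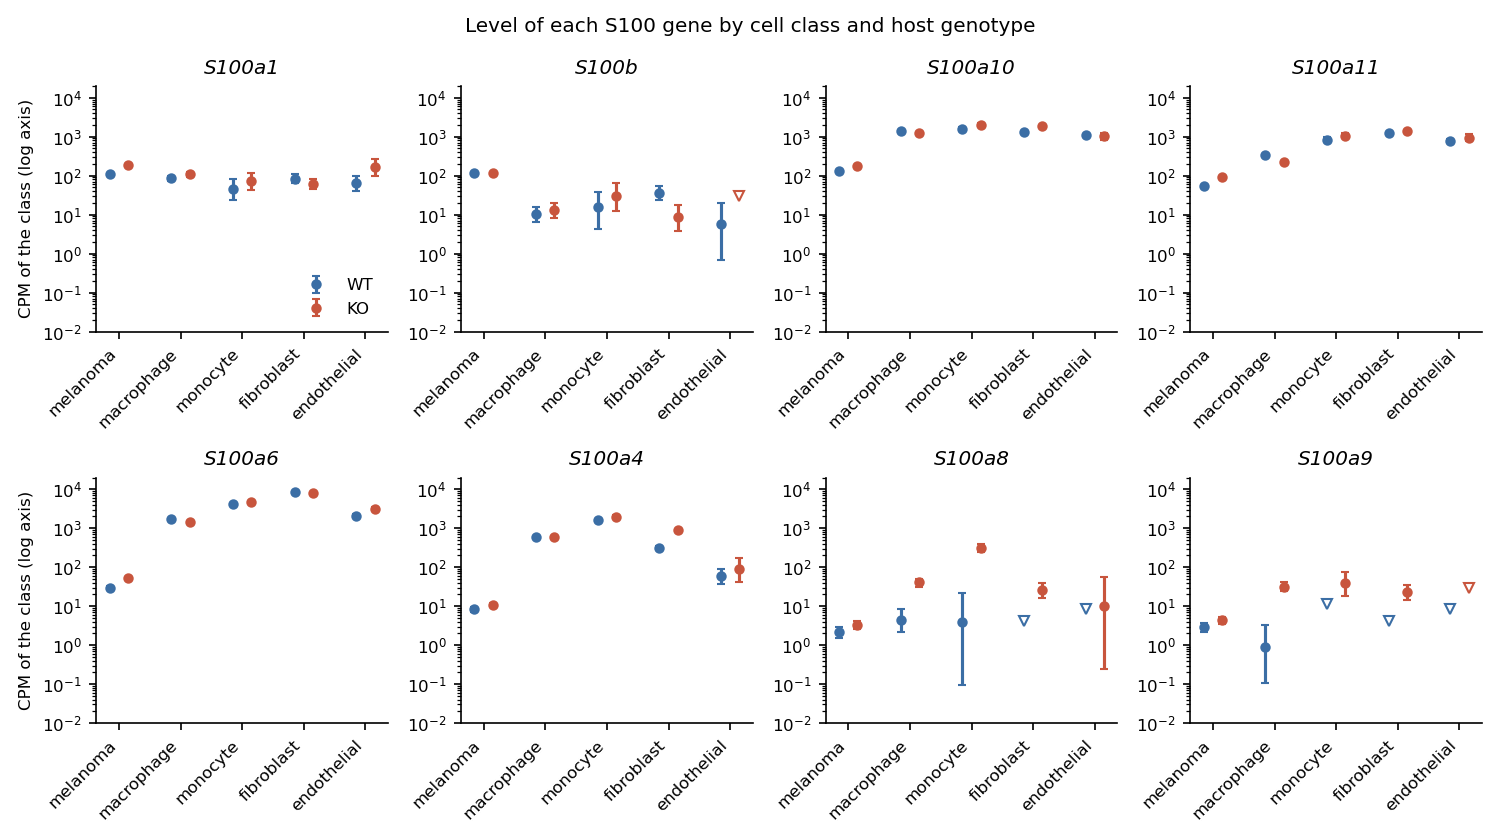
CPM of each S100 gene (log axis) in 5 cell classes, with WT in blue, KO in red and 95% counting intervals as bars. Open triangles stand at the CPM that 3 UMIs would give where a class had 0 UMIs. S100a6 reached 8430 CPM in WT fibroblast-like cells, while the measured S100a8 and S100a9 levels lay below 5 CPM in each of these WT classes. In the shallow WT monocyte-like cells the upper bounds of the intervals were 21.3 CPM for S100a8 and 14.1 CPM for S100a9.

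The genes differed in which cell classes held them. S100b and S100a1 lay mainly in the tumour cells. Of all S100b UMIs in kept cells, 91.4% (90.3 to 92.5) were in melanoma-like cells in WT and 88.8% (87.6 to 90.0) in KO, and for S100a1 the shares were 81.2% and 83.3%. S100a1 was less restricted by level, at 113 CPM in WT melanoma-like cells against 86.6 CPM in macrophage-like and 83.7 CPM in fibroblast-like cells. S100b was at 118 CPM in WT melanoma-like cells and 36.5 CPM in fibroblast-like cells, the next class. In KO the S100b interval of melanoma-like cells also lay above that of every other class, while the S100a1 interval overlapped that of the endothelial-like cells.

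S100a6, S100a10, S100a11 and S100a4 lay mainly in host cells by level. S100a6 was highest in fibroblast-like cells (8430 CPM in WT, 8198 in KO). Monocyte-like cells followed at 4277 and 4584 CPM, and melanoma-like cells were lowest at 30.0 and 52.4 CPM. S100a4 was highest in monocyte-like cells, with 1609 CPM for WT and 1976 CPM for KO. Its second class differed between the libraries. In WT it was the macrophage-like cells at 597 CPM, above fibroblast-like cells at 308 CPM, and in KO it was the fibroblast-like cells at 878 CPM, above macrophage-like cells at 583 CPM, with no overlap of neighbouring intervals in either library. Among KO cells with Xist, the kind that WT had, the order was not separated, with 615 CPM (509 to 737) in fibroblast-like and 653 CPM (553 to 766) in macrophage-like cells. S100a10 ranged over the host classes from 1088 to 1567 CPM in WT and from 1028 to 2025 CPM in KO. In KO its monocyte-like and fibroblast-like cells lay above the macrophage-like cells without overlap, and its 3 highest WT classes had intervals that overlapped their neighbours. Among KO cells with Xist the S100a10 order was not separated. Levels there were 1821 CPM (1390 to 2344) in monocyte-like, 1324 CPM (1166 to 1497) in fibroblast-like and 1315 CPM (1171 to 1471) in macrophage-like cells. S100a11 was highest in fibroblast-like cells, at 1266 and 1412 CPM, and monocyte-like and endothelial-like cells did not differ beyond their intervals.

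**Figure D2:**
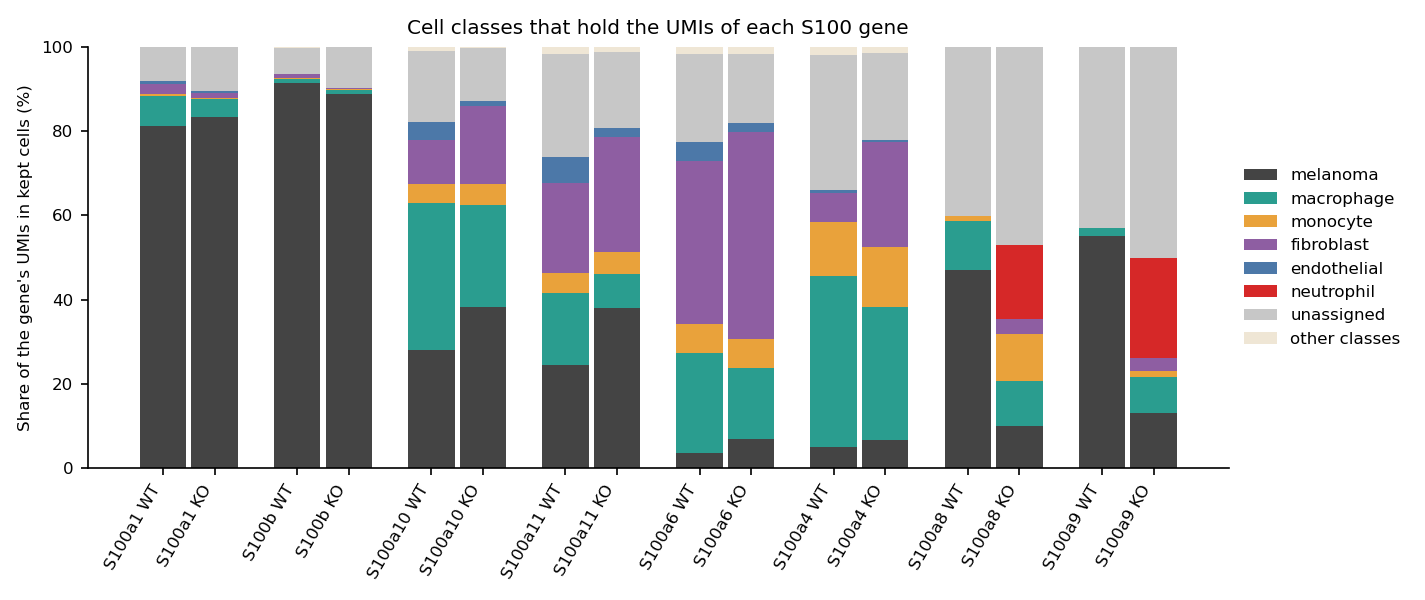
Share of each gene's UMIs in kept cells (%) held by each cell class, 1 bar per gene and library. S100b and S100a1 bars are mostly melanoma, the fibroblast part of the S100a4 bar is 6.97% in WT and 25.0% in KO, and the largest part of the S100a8 and S100a9 bars is melanoma-like cells in WT (47.1% and 55.0%) and unassigned cells in KO (47.0% and 50.2%).

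Melanoma-like cells of KO hosts held more of several S100 transcripts than those of WT hosts, although the tumour cells were not deleted for Atf4. For S100a1, WT cells held 113 CPM (108 to 118, from 2179 UMIs) and KO cells 193 CPM (187 to 199, from 3768 UMIs), so the log2 ratio was 0.78 (0.70 to 0.85). For S100b the levels were 118 and 119 CPM, and the log2 ratio was 0.02 (-0.06 to 0.11). S100a1 and S100b thus stood apart, and each was counted in over 2000 UMIs per library. S100a11 came to 56.0 and 90.9 CPM, with a ratio of 0.70 (0.59 to 0.81). S100a10 came to 134 and 178 CPM, with a ratio of 0.41 (0.33 to 0.48). Of the 8 genes, all of which had the 20 UMIs required, 5 were at least 1.5-fold higher in KO and 0 lower, against 9.2% higher and 4.84% lower of 12192 genes tested in this class. The 5 were S100a1, S100a11, S100a6, S100a8 and S100a9, of which S100a8 and S100a9 turned to -0.32 and -0.11 with free RNA subtracted and S100a6 was at 0.19 averaged over cells. The median log2 ratio was 0.61 over the 8 genes and 0.02 over all genes tested. The summed melanoma markers of the gate came to 13124 CPM in WT and 10078 CPM in KO cells, and their part in these results was not tested.

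S100a6 and S100a4 were low in melanoma-like cells taken as a whole and near what free RNA would give. Free RNA, estimated from the markers of other classes on the profile of the whole library, made up 5.13% of UMIs in WT and 7.51% in KO melanoma-like cells. It would account for 79.7% of the S100a6 level in WT and 62.3% in KO, and for 58.5% and 63.3% of the S100a4 level. The S100a6 log2 ratio of 0.80 (0.66 to 0.95) was 1.73 with free RNA subtracted and 0.19 when the CPM of single cells were averaged. For S100a1 and S100b the free RNA share was at most 7.90% of the level. At a depth of 2000 UMIs per cell, which left out 95 WT and 75 KO cells, 20.3% of WT (18.3 to 22.3) and 29.2% of KO (27.0 to 31.4) melanoma-like cells had an S100a1 UMI. The shares were 64.6% and 73.5% before thinning. S100b was seen in 22.7% and 20.4% of melanoma-like cells at the same depth, against 2.18% and 2.35% of macrophage-like cells, which should lack it.

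Within the melanoma-like cells, S100a1 and S100b were higher where no cycling gene was seen. In the 1394 WT cells with at least 2 of 7 cycling genes S100a1 was at 106 CPM, and in the 149 WT cells with none it was at 177 CPM. In KO the values were 171 CPM in 1264 cells and 317 CPM in 272 cells. S100b was at 108 and 202 CPM in WT and at 101 and 198 CPM in KO. Cells with no cycling gene were also shallower, with medians of 6928 and 8002 UMIs in WT and KO against 12202 and 11859 in cycling cells, and the part of depth was not tested. The S100a1 ratio was alike in both sets, at a log2 KO/WT of 0.68 (0.59 to 0.77) in cycling cells and 0.84 (0.59 to 1.10) in cells with no cycling gene. S100a11 gave 0.58 (0.45 to 0.71) and 0.70 (0.35 to 1.07), and S100a10 gave 0.42 and 0.36. S100a6 was different, with 0.84 (0.66 to 1.02) in cycling cells and -0.17 (-0.52 to 0.19) in cells with no cycling gene. Its level was 24.3 CPM in WT and 43.5 CPM in KO cycling cells. In cells with no cycling gene it was 114 CPM (92.8 to 138) in WT and 101 CPM (88.1 to 116) in KO. Free RNA was not estimated for these subsets.

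**Figure D3:**
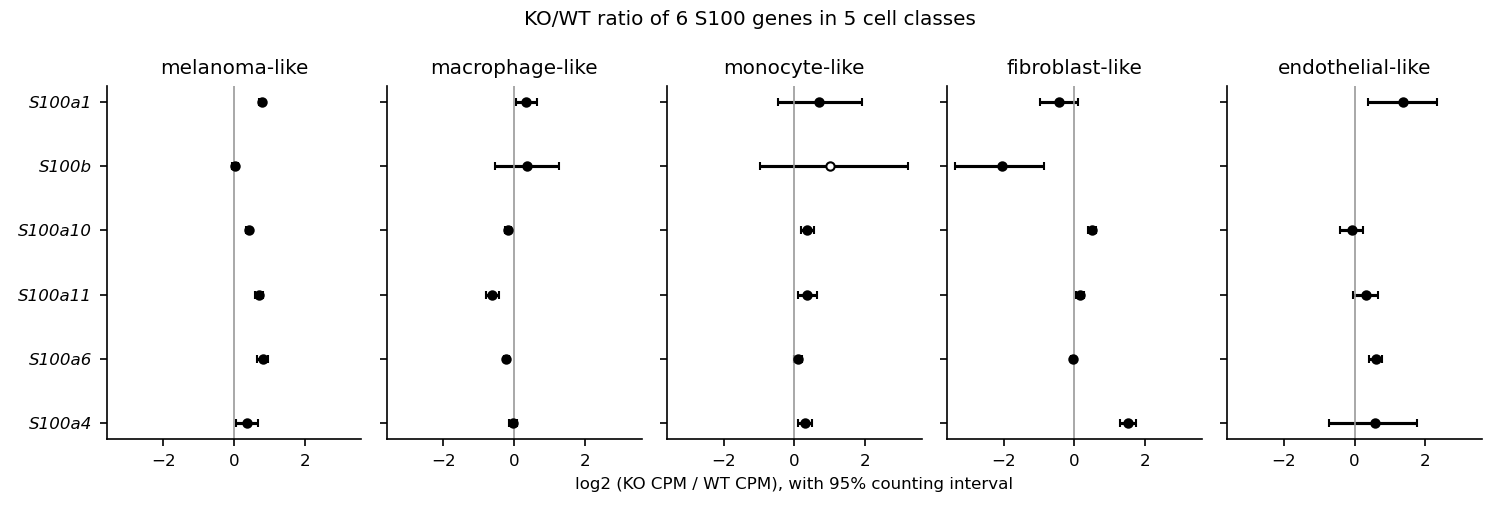
Log2 KO/WT ratio of 6 S100 genes in 5 cell classes, with 95% counting intervals. The vertical line marks equal levels, and the open point rests on fewer than 20 UMIs. S100a11 lies right of the line in melanoma-like and left of it in macrophage-like cells, and S100a4 lies farthest right in fibroblast-like cells, at 1.51.

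In fibroblast-like cells S100a4 was higher in KO. WT cells held 308 CPM (269 to 351, from 228 UMIs) and KO cells 878 CPM (818 to 941, from 792 UMIs), which is 2.85-fold or a log2 ratio of 1.51 (1.30 to 1.73). At 2000 UMIs per cell, 33.3% of 162 WT cells (26.1 to 41.2) and 55.3% of 188 KO cells (47.9 to 62.6) had an S100a4 UMI, against 1.48% and 1.62% of melanoma-like cells. At full depth, with medians of 3762 and 3814 UMIs, these shares stood at 43.8% and 62.4%. S100a4 was seen in 81 WT and 133 KO cells, and the 10 cells richest in it held 39.9% of the WT and 28.0% of the KO UMIs. For S100a6 the 10 richest cells held 14.4% and 16.8%. Leukocyte markers, which could come with leukocyte S100a4, were also summed in fibroblast-like cells. Those of macrophages reached 56.7 CPM for WT cells and 36.6 CPM for KO cells, and 6 and 7 of the 8 were seen. Those of monocytes, the class highest in S100a4, reached 959 and 1013 CPM. Those of neutrophils reached 93.2 and 111 CPM. The monocyte list holds Vcan and Hp, and its sum was not split by gene. Whether fibroblasts made part of that sum was not tested, nor was the part of leukocyte RNA in the S100a4 difference.

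The S100a4 difference was present in each subset of fibroblast-like cells examined. In cells with at least 2 adventitial markers it was at 310 CPM in 48 WT cells and 1123 CPM in 64 KO cells, a log2 ratio of 1.86 (1.47 to 2.27). In cells with neither adventitial nor mural markers the levels were 317 CPM in 133 WT cells and 763 CPM in 145 KO cells, for a log2 ratio of 1.27 (1.01 to 1.54). Cells with an Xist and no Y-linked UMI gave 306 CPM in WT (152 cells) and 615 CPM in KO (56 cells), a log2 ratio of 1.01 (0.67 to 1.35). KO cells with a Y-linked and no Xist UMI were at 1311 CPM (1174 to 1460, 46 cells), higher than the KO cells with Xist by a log2 ratio of 1.09 (0.79 to 1.41). The size of the difference therefore varied with the sex markers of the KO cells, and 0 WT fibroblast-like cells had a Y-linked UMI to compare them with.

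**Figure D4:**
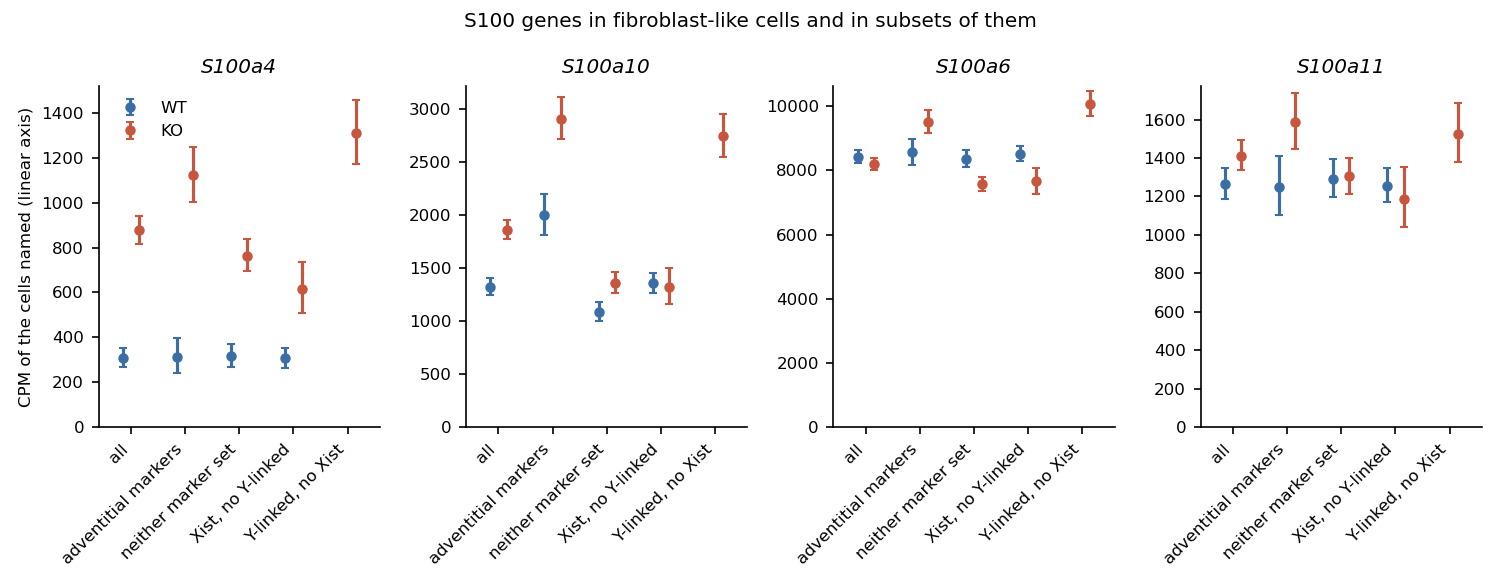
CPM of S100a4, S100a10, S100a6 and S100a11 (linear axes) in all fibroblast-like cells, in cells with adventitial markers, in cells with neither marker set, and in cells grouped by Xist and Y-linked UMIs, with WT in blue, KO in red and 95% counting intervals as bars. For S100a4 every KO point lies above every WT point, whereas for S100a10 the KO cells with Xist, at 1324 CPM, overlap the WT cells with Xist, at 1358 CPM.

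S100a10 in fibroblast-like cells was 1324 CPM for WT (1242 to 1409) and 1861 CPM for KO (1773 to 1952), and the log2 ratio was 0.49 (0.38 to 0.61). This difference was not present in cells with Xist, where the log2 ratio was -0.036 (-0.24 to 0.17), while KO cells with a Y-linked UMI were at 2748 CPM, a log2 ratio of 1.02 (0.87 to 1.16) over WT cells with Xist. S100a10 was also higher in cells with adventitial markers than in the rest, at 2002 against 1090 CPM in WT and 2913 against 1362 CPM in KO. For S100a6, at 8430 and 8198 CPM, the ratio was -0.04 (-0.09 to 0.01), and for S100a11, at 1266 and 1412 CPM, it was 0.16 (0.04 to 0.28). In cells with Xist these were -0.15 for S100a6 and -0.080 (-0.30 to 0.13) for S100a11, and for KO cells with a Y-linked UMI 0.24 and 0.28. S100b came to 27 UMIs for WT and 8 for KO, a log2 ratio of -2.04 (-3.39 to -0.86). With 2 markers required in a host gate it was -0.41. The KO level of 8.87 CPM was close to the 6.95 CPM that free RNA would give, and the WT level of 36.5 CPM compared with 5.50 CPM. S100a1 was at 83.7 and 62.1 CPM, and its interval of -0.98 to 0.11 held 0. Among the 8 genes, each with 20 UMIs or more, 3 were 1.5-fold higher in KO and 1 lower, against 12.8% higher and 16.2% lower of 7254 genes tested. S100a8 and S100a9, 2 of the 3, had 0 WT UMIs and passed the filter through KO alone. Of their 23 and 21 KO UMIs, 19 and 20 were in 1 cell.

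In macrophage-like cells S100a11 was lower in KO. WT cells held 336 CPM from 748 UMIs and KO cells 218 CPM from 377 UMIs, for a log2 ratio of -0.62 (-0.80 to -0.44). At 2000 UMIs per cell 39.2% of WT (35.1 to 43.4) and 31.3% of KO (26.9 to 35.9) cells had an S100a11 UMI, so the intervals overlapped slightly. Cells with Xist gave a log2 ratio of -0.32 (-0.72 to 0.07), and KO cells with a Y-linked UMI gave -0.83 (-1.24 to -0.44) against WT cells with Xist. S100a4 came to 597 and 583 CPM, with a ratio of -0.03 (-0.15 to 0.09). S100a10 was at 1442 and 1270 CPM, with a ratio of -0.18 (-0.26 to -0.10) that was -0.16 (-0.34 to 0.01) in cells with Xist. S100a6 was at 1716 and 1470 CPM, a ratio of -0.22 (-0.30 to -0.15) that turned to 0.17 (0.02 to 0.32) in cells with Xist and was -0.51 (-0.67 to -0.35) for KO cells with a Y-linked UMI. The S100a4 ratios by the same split were 0.17 (-0.09 to 0.41) and -0.44 (-0.71 to -0.18). S100a1 was at 86.6 and 110 CPM, a ratio of 0.34 (0.05 to 0.64) that was 0.07 (-0.64 to 0.72) in cells with Xist. S100b had 23 UMIs in each library and lay near the free RNA level. Of the 8 genes, all with 20 UMIs, 2 were 1.5-fold higher and 1 lower in KO, against 9.44% and 9.16% of 8898 genes. The 2 higher genes were S100a8 and S100a9, which passed the filter mainly through KO. Monocyte markers summed to 962 CPM in WT and 2031 CPM in KO macrophage-like cells, and their part in these values was not tested.

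The monocyte-like cells differed most in S100a8. There was 1 S100a8 UMI in 211 WT cells and there were 71 in 177 KO cells, which is 3.82 CPM (0.10 to 21.3) against 311 CPM (243 to 392) and a log2 ratio of 6.35 (3.82 to 11.67). The UMIs were spread over 27 of 177 KO cells, or 15.3%, with at most 10 in a cell, compared with 1 of 211 WT cells, or 0.474%, at nearly equal median depth. In KO melanoma-like and fibroblast-like cells 2.16% and 1.88% had an S100a8 UMI without thinning. Thinning to 2000 UMIs left only 10 WT and 9 KO monocyte-like cells, and 0 of these had an S100a8 UMI. Free RNA would give 2.37 CPM in the KO cells. S100a9 had 0 UMIs in WT monocyte-like cells, and with 3 UMIs in place of 0 it was 3.44-fold higher in KO. Its log2 interval began at 1.18. KO monocyte-like cells had 9 S100a9 UMIs, and 7 of the 9 were in 1 cell. There were thus 7.89 S100a8 UMIs per S100a9 UMI in these cells. Of the 8 neutrophil markers 5 were seen in each library, and they summed to 103 CPM in WT and 96.4 CPM in KO. Among KO monocyte-like cells, the 21 with Xist held 23 S100a8 UMIs and the 20 with a Y-linked UMI held 3.

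The other members differed less in monocyte-like cells. S100a4, with 1609 and 1976 CPM, had a ratio of 0.30 (0.10 to 0.49), S100a10, with 1567 and 2025 CPM, had 0.37 (0.17 to 0.56), and S100a11, with 837 and 1074 CPM, had 0.36 (0.09 to 0.63). S100a6 was at 4277 and 4584 CPM, with an interval of -0.02 to 0.22. In cells with Xist the ratio was 0.28 (0.02 to 0.53) for S100a6, 0.14 (-0.29 to 0.56) for S100a10 and 0.16 (-0.28 to 0.57) for S100a4. For S100a11 it was 0.17 (-0.41 to 0.71). KO cells with a Y-linked UMI had 0.87 (0.47 to 1.26) for S100a4 against WT cells with Xist. Of the 6 members with 20 UMIs, 2 were 1.5-fold higher in KO and 0 lower, against 12.9% higher and 13.8% lower of 3191 genes. The 2 were S100a8, which passed the filter through KO, and S100a1, with 12 and 17 UMIs, an interval of -0.45 to 1.90 and a ratio of -0.71 in cells with Xist. S100a9 and S100b did not reach 20 UMIs.

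Over all kept cells, S100a8 came to 87 UMIs for WT and 645 for KO, and S100a9 to 100 and 644. These UMIs were held by few cells. In KO the 10 richest cells held 65.4% of S100a8 UMIs and 75.6% of S100a9 UMIs, and in WT 82.8% and 98.0%. Both genes were seen in the same cell in 5 WT and 26 KO cells. Only S100a8 was seen in 20 WT and 102 KO cells, and only S100a9 in 7 and 55. The 19 KO cells with 10 or more UMIs of the pair held 1053 UMIs. Of these 19 cells, 10 were unassigned, 2 passed the neutrophil gate, and 15 had at least 1 neutrophil marker. Their median depth was 819 UMIs, and 11 of the 19 had fewer than 1000. One KO cell of 507 UMIs had 74 S100a8 and 92 S100a9 UMIs, which was 32.7% of its content, together with 16 UMIs of the neutrophil gene Retnlg. In the WT library 5 cells had 10 or more UMIs of the pair and held 160 UMIs, and 2 of these were melanoma-like. There were 0.743 S100a8 UMIs per S100a9 UMI in the 2 neutrophil-like cells and 0.886 in the 10 unassigned KO cells with 10 or more UMIs of the pair, compared with 7.89 in KO monocyte-like cells.

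**Figure D5:**
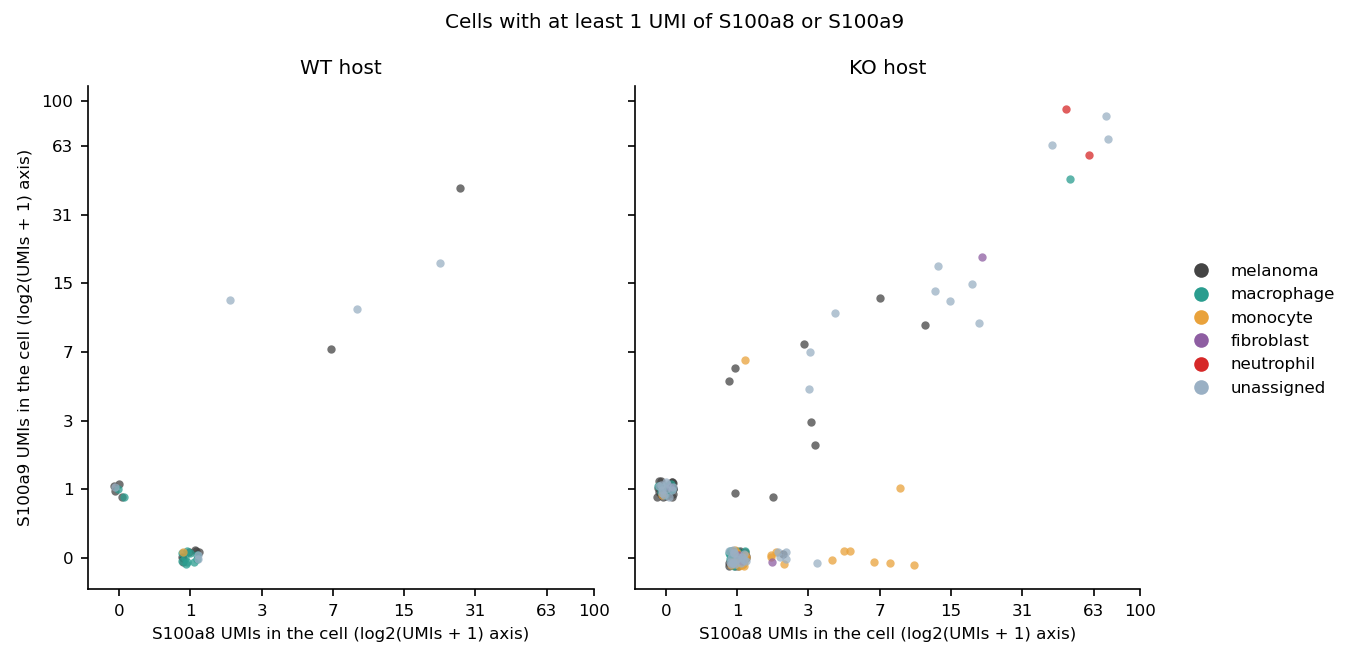
S100a8 against S100a9 UMIs in each cell with at least 1 UMI of either, in WT (left) and KO (right), on log2(UMIs + 1) axes with small random shifts so that points do not hide each other. KO unassigned and neutrophil-like cells run along the diagonal up to 74 and 92 UMIs, and KO monocyte-like cells lie mostly along the S100a8 axis with at most 10 UMIs.

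In melanoma-like cells S100a8 had 41 WT and 64 KO UMIs and S100a9 had 55 and 84, in which 27 and 44 of the WT UMIs came from 1 cell. Without the richest cell of each library the log2 ratios were 1.88 for S100a8 and 2.68 for S100a9, compared with 0.63 and 0.60, and with free RNA subtracted they were -0.32 and -0.11. In macrophage-like cells S100a8 had 10 and 70 UMIs, a log2 ratio of 3.17 (2.21 to 4.30), and 49 of the 70 were in 1 cell with 48 S100a9 UMIs. The ratio was 1.59 without the richest cells, and 0.49 (-2.78 to 2.81) for KO cells with a Y-linked UMI against WT cells with Xist. For S100a9, with 2 and 55 UMIs, the ratio of 5.15 (3.23 to 8.23) was 3.18 without the richest cells, 2.95 in cells with Xist and 2.49 for KO cells with a Y-linked UMI.

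Endothelial-like cells were few, with 24 in KO, and their intervals were wide. S100a6 came to 2099 CPM for WT and 3174 CPM for KO, a log2 ratio of 0.60 (0.40 to 0.79), which was 0.40 (0.01 to 0.77) in cells with Xist. S100a1 had 23 and 17 UMIs, a ratio of 1.37 (0.38 to 2.34). S100a10, at 1088 and 1028 CPM, S100a11, at 766 and 949 CPM, and S100a4, with 21 and 9 UMIs, had intervals that held 0. KO cells with a Y-linked UMI had an S100a4 ratio of 1.91 (0.39 to 3.27) against WT cells with Xist. Of the 5 members with 20 UMIs, 3 were 1.5-fold higher and 0 lower, against 17.3% and 18.4% of 3393 genes. The 3 were S100a1, S100a6 and S100a4. With scaling by trimmed means, S100a6 and S100a4 had log2 ratios of 0.42 and 0.41, below 1.5-fold. Scaling by trimmed means moved all ratios in this class by 0.18.

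Receptors and partners of S100 proteins form a list of 12 genes. In melanoma-like cells all 12 had 20 UMIs, of which 2 were 1.5-fold higher in KO and 1 lower, against 9.2% and 4.84% of all genes tested. In macrophage-like cells 11 were measured, with 0 higher and 2 lower, against 9.44% and 9.16%. In fibroblast-like cells 8 were measured, with 0 in either direction, against 12.8% and 16.2%. In monocyte-like cells 10 were measured, with 1 higher and 1 lower, against 12.9% and 13.8%. In endothelial-like cells 9 were measured, with 2 higher and 1 lower, against 17.3% and 18.4%. With so few genes these counts were not read as differing from the background. Anxa2, the annexin that holds S100a10 at membranes, had ratios near those of S100a10 in 4 classes. Its log2 ratio was 0.44 (0.38 to 0.50) in melanoma-like cells, 0.41 (0.29 to 0.53) in fibroblast-like cells, 0.31 (0.05 to 0.56) in monocyte-like cells and -0.28 (-0.38 to -0.19) in macrophage-like cells. The S100a10 ratios in the same classes were 0.41, 0.49, 0.37 and -0.18. In cells with Xist the S100a10 ratio was -0.036 (-0.24 to 0.17) in fibroblast-like and -0.16 (-0.34 to 0.01) in macrophage-like cells. Neither Anxa2 nor the other genes of this list were split by sex. Anxa2 and S100a10 parted in endothelial-like cells, with 0.52 (0.24 to 0.79) for Anxa2 and -0.08 for S100a10. Ahnak, a large scaffold that binds the S100a10 and annexin A2 complex, had ratios of 0.51 (0.34 to 0.68) in fibroblast-like and 0.18 (0.07 to 0.29) in macrophage-like cells. Anxa1, the annexin bound by S100a11, came to 465 CPM in WT and 240 CPM in KO macrophage-like cells, a ratio of -0.95 (-1.12 to -0.79). S100a11 had -0.62 there, and -0.32 (-0.72 to 0.07) in cells with Xist. The Anxa1 ratio was 0.35 (0.26 to 0.44) in melanoma-like and 0.10 (-0.08 to 0.29) in fibroblast-like cells. It was -0.18 (-0.72 to 0.36) in monocyte-like and 0.09 (-0.48 to 0.63) in endothelial-like cells. S100a11 had 0.70, 0.16, 0.36 and 0.31 in the same order of classes. Cd36, a scavenger receptor that takes up S100a8 and S100a9 complexes with fatty acids, was at 464 and 236 CPM in macrophage-like cells. Myh9, the non-muscle myosin heavy chain bound by S100a4, had a ratio of 0.65 (0.56 to 0.74) in melanoma-like and 0.24 (-0.02 to 0.50) in fibroblast-like cells, where S100a4 differed most. Cacybp, the calcyclin-binding protein, came to 358 CPM in WT and 247 CPM in KO melanoma-like cells, a ratio of -0.54 (-0.59 to -0.48). Tlr4, a receptor for calprotectin, had 61 and 55 UMIs in macrophage-like cells and an interval of -0.33 to 0.77. Ager, the receptor for advanced glycation end products, had 17 and 29 UMIs in melanoma-like cells and at most 3 in any other named class.

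Of the 9 other S100 genes in the files, only S100a13 and S100a16 reached 20 UMIs in a named class. S100a16 was low in tumour cells, with 14.9 CPM in WT and 27.8 CPM in KO melanoma-like cells and a log2 ratio of 0.90 (0.69 to 1.11). In fibroblast-like cells it was at 593 and 655 CPM, with an interval of -0.04 to 0.33. S100a13 was at 36.6 and 47.8 CPM in melanoma-like cells, a ratio of 0.39 (0.24 to 0.53), and at 397 and 324 CPM in fibroblast-like cells, a ratio of -0.30 (-0.53 to -0.06). In macrophage-like cells it was at 182 and 180 CPM.

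Likeness of pattern was measured by Pearson's r of log2(CPM + 10) over 10 profiles, the 5 classes in each library, among 9832 genes. The profiles are not independent, since classes of a library share its depth and free RNA. Among the members, S100a6 was closest to S100a10 (r = 0.96) and S100a11 (r = 0.95), and S100a4 to S100a10 (r = 0.88). S100a8 and S100a9 were also near each other (r = 0.88), whereas S100a1 and S100b had r = 0.33. S100b lay opposite to S100a10 (r = -0.77). Over all genes the closest to S100a4 were Prdx5, Mcub and Ifi211 (r = 0.98 for each), and the closest to S100a10 were Parp9 (r = 0.99), Crip1 (r = 0.98) and Ahnak (r = 0.97). For S100a6 they were Rbms1, Ptp4a2 (r = 0.97 for each) and Malat1 (r = 0.96). For S100a11 they were Plod3 (r = 0.96), S100a6 and Peak1 (r = 0.95 for each). For S100b they were Dusp28, Utp14b and Rabl2 (r = 0.97 for each). For S100a1 they were Tmem60 (r = 0.94), Tab3 (r = 0.92) and Rfng (r = 0.91). For S100a8 they were Ring1, S100a9 (r = 0.88 for each) and Ankrd16 (r = 0.86), and for S100a9, after S100a8, Use1 (r = 0.81) and Rnf135 (r = 0.80). The likeness of sparse genes such as S100a8 and S100a9 rests on few UMIs.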

How the data were processed

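Tumours were dissociated and run as droplet single-cell RNA sequencing, 1 library per host genotype. The deposited values are raw UMI counts by gene and barcode, which the authors made with Cell Ranger 3.1.0 on GRCm38 (processing notes of the submitters, which also name Seurat 3.2.1). The labels and the study's methods name different versions of the kit.

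Cells needed 200 to 5000 genes and no more than 7.5% of UMIs from mitochondrial genes. A cell joined the host class with the largest share of its markers seen, if at least 3 were seen without a tie and melanoma markers made up less than 0.292% of its UMIs, the Otsu limit. Above it, cells with 4 melanoma markers and under 3 of each host class were melanoma-like. The limit had 261 WT and 216 KO cells near it, and 232 and 156 cells carried both kinds of marker and stayed unassigned. No doublet caller was used; Scrublet called 114 WT and 50 KO cells, which were removed as an alternative.

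UMIs were summed by class and library. CPM have exact Poisson intervals, shares exact Clopper-Pearson intervals and ratios exact conditional binomial intervals. A count of 0 was set to 3. Genes needed 20 UMIs over both libraries to enter the counts past 1.5-fold. For shares of cells, each cell was thinned to 2000 UMIs. Alternatives changed the filters, gates, scaling, free RNA, averaging and sex of the cells. The interval and ratio steps were tested on simulated data. All 8 members are described, with other S100 genes, receptors and partners of at least 20 UMIs, and for each member the 3 genes of most similar pattern among those with 200 UMIs. The members and lists were chosen with earlier results of these data known. Positions are from GENCODE vM21 and upstream sequences from RefSeq. Python 3.11.15, numpy 2.4.6, pandas 2.3.3, scipy 1.17.1, scanpy 1.11.5 and edgeR 4.0.16 in R 4.3.3 were used, edgeR for trimmed-mean scaling only.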

Additional observations from a re-analysis of the deposited data

Results flagged for a closer look

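For 3 S100 genes the KO/WT ratio pointed in opposite directions in different classes, with each interval off 0. The difference between classes was not tested. S100a6 had a log2 ratio of 0.80 in melanoma-like and 0.60 in endothelial-like cells, against -0.22 in macrophage-like cells. S100a10 had 0.41 in melanoma-like, 0.37 in monocyte-like and 0.49 in fibroblast-like cells, against -0.18 in macrophage-like cells. S100a11 had 0.70 in melanoma-like, 0.36 in monocyte-like and 0.16 in fibroblast-like cells, against -0.62 in macrophage-like cells. In cells with Xist the S100a6 ratio in macrophage-like cells was 0.17, so its opposition to the other classes was lost, and the fibroblast ratios were -0.036 for S100a10 and -0.080 for S100a11. Macrophage-like cells with Xist had ratios of -0.16 (-0.34 to 0.01) for S100a10 and -0.32 (-0.72 to 0.07) for S100a11. Both of these intervals held 0. Free RNA would account for 79.7% of the S100a6 level in WT and 62.3% in KO melanoma-like cells.

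The cells that joined no class were outside the comparisons by class and held 303 S100a8 and 323 S100a9 UMIs in KO, against 35 and 43 in WT.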

How the results depend on the processing

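No paired analysis was possible because there was 1 WT and 1 KO library. Of 101 recomputed values for the 9 ratios led with, 85 stayed inside the counting interval of the main value and 16 left it, and 7 of the 101 had the opposite sign to the main value. Leaving out the richest cell, and using KO cells with a Y-linked UMI, were added after seeing the data. In host cells with Xist but without a Y-linked UMI the log2 ratio in fibroblast-like cells was 1.01 for S100a4, -0.15 for S100a6, -0.036 for S100a10 and -0.080 for S100a11, and in macrophage-like cells it was 0.17 for S100a4, 0.17 for S100a6 and -0.32 for S100a11. With KO cells that had a Y-linked UMI, the ratio in fibroblast-like cells was 2.10 for S100a4, 0.24 for S100a6 and 1.02 for S100a10, and in macrophage-like cells it was -0.44 for S100a4 and -0.83 for S100a11. With 2 markers in a host gate, fibroblast-like cells gave 1.22 for S100a4, -0.31 for S100a6, 0.25 for S100a10 and -0.083 for S100a11, and with 4 markers S100a6 gave 0.032. Averaging the CPM of single cells gave 0.69 for S100a1 and 0.53 for S100a11 in melanoma-like cells. With free RNA subtracted, S100a8 and S100a9 in melanoma-like cells turned to -0.32 and -0.11. The cause was not tested. S100a8 in monocyte-like cells ranged from 4.15 to 6.62 and S100b in melanoma-like cells from -0.02 to 0.04. Of 291 values for the other 26 ratios, 29 left the interval and 10 had the opposite sign. The number of genes past 1.5-fold moved with the UMI minimum, from 384 at 200 UMIs to 2880 at 1 UMI for genes higher in KO melanoma-like cells. Depth limits the monocyte-like cells, which had about 1100 UMIs each, and the 24 KO endothelial-like cells.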

Other observations

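The T/NK-like class held 16 WT and 9 KO cells, below the 50 cells required for the comparisons. WT cells of this class held 958 CPM of S100a4 (558 to 1533, from 17 UMIs) and KO cells 2588 CPM (1770 to 3654, from 32 UMIs). S100a6 came to 3267 and 3397 CPM in these lymphoid cells. In unassigned cells S100a4 came to 470 CPM for WT and 239 CPM for KO, and S100a1 to 95.4 and 170 CPM.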
